A study of Rattus norvegicus with 64 samples.

Results

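Kidney messenger RNA was compared between rats given acetaminophen and rats given vehicle, 10 h after treatment. The comparison took every library labelled as kidney and 10 h, which gave 16 of the 64 libraries in the series. The 8 acetaminophen libraries came from Sprague Dawley rats that received a single dose of 2 g/kg. The 8 vehicle libraries came from Sprague Dawley rats dosed with polyethylene glycol and no acetaminophen, at 50% strength and 6 ml/kg. No carrier volume or strength is recorded here for the acetaminophen animals. The series also holds kidneys taken at 5 h and livers taken at both times, with 8 libraries for each tissue, agent and time. The labels give no sex, age or sequencing batch, and do not say which liver and kidney libraries come from the same rat. They do not say in words that each library of a group is a separate rat, so p-values measure the spread between libraries. Their extraction text speaks of cultured cells, although the tissue field names kidney. Each library is a bulk sample, so fewer cells of a type and less RNA per cell cannot be told apart.

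Acetaminophen is an analgesic that injures liver and, less often, kidney in overdose. Most of a dose is conjugated to glucuronide or sulfate and leaves through the kidney. A smaller part is oxidised by cytochrome P450 enzymes to a reactive quinone imine, which glutathione binds, and cells of the proximal tubule carry out this oxidation too. Acetaminophen also lowers prostaglandin synthesis, on which renal blood flow and salt handling depend.

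The features measured were transcripts with Ensembl identifiers. None of the 28420 identifiers in the files was found in the gene table used here, so no transcript could be given a gene symbol, a role or a sequence. Changes are therefore described by abundance, by direction, by the tissue in which vehicle rats express the transcript, and by 4 identifiers chosen by rule.

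Library totals lay between 18039111 and 26148119 estimated counts. Each of the 16 libraries correlated more closely with every other kidney library (r from 0.969 on the log2(TPM + 1) scale) than with any liver library (r up to 0.813). Acetaminophen replicate 6 stood apart from its group. Its transcripts deviated from the group median by a median of 0.239 on the log2 scale, against 0.0741 to 0.150 in the other 7 acetaminophen libraries and 0.0698 to 0.168 in the vehicle libraries. Results are given with and without it where it carries weight.

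None of 5 measures of library make-up differed between the groups past an adjusted p of 0.05. The total count was 1 of them (exact permutation test, BH-adjusted p = 0.943). Transcripts with at least 1 count numbered 20283 ± 318 in acetaminophen kidneys and 20304 ± 198 in vehicle kidneys (SD, n = 8 each; exact permutation test, two-sided, BH-adjusted p = 0.943). The 10 most abundant transcripts held 20.8% ± 1.98 of the counts in acetaminophen kidneys and 19.5% ± 1.78 in vehicle kidneys (exact permutation test, BH-adjusted p = 0.464). Kidney-enriched transcripts, at least 16 times more abundant in kidney than in liver of 5 h vehicle rats, held 13.9% ± 0.775 of the counts in acetaminophen kidneys and 14.7% ± 0.683 in vehicle kidneys (exact permutation test, BH-adjusted p = 0.294). Liver-enriched transcripts, defined the same way for liver, held 0.219% ± 0.0201 in acetaminophen kidneys and 0.220% ± 0.0262 in vehicle kidneys (exact permutation test, BH-adjusted p = 0.943). Acetaminophen replicates 2 and 7 had, of the 16 libraries, the highest shares in the 10 most abundant transcripts, 24.59% and 23.04%, and the lowest shares in kidney-enriched transcripts, 12.7% and 12.8%.

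A small part of the kidney transcriptome differed between the groups. With acetaminophen, 120 of 17284 tested transcripts rose and 112 fell, together 1.34% of the total (0.694% rose and 0.648% fell). A transcript is said to rise or fall where edgeR's adjusted p is under 0.05. Most called changes were modest: the rises had a median log2 change of 0.58 (interquartile range 0.39 to 0.90), and the falls had a median of -0.60 (interquartile range -0.91 to -0.44). A change of at least 1 on the log2 scale was seen in 27 rises and 24 falls, and a change under 0.5 in 48 rises and 38 falls. Transcripts that rose were 2216 bases long at the median and those that fell 1958 bases, against 1972 bases over all tested.

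How many transcripts passed depended on the libraries used. Without acetaminophen replicate 6, 173 rose and 180 fell. On the 16 libraries of 10 h alone, 207 rose and 172 fell. The count without acetaminophen replicate 1, 3, 4, 7 or 8 was 140, 141, 154, 136 or 131, and without vehicle replicate 6 or 8 it was 113 or 148. With limma on log2(TPM + 1), which changes both the test and the scale, 26.3% of 198 calls were rises. That share was 51.7% of the 232 calls here, 50.2% with DESeq2 size factors in edgeR and 49.01% with limma voom on the counts. The median log2 change over all tested was 0.00 in the edgeR fit and -0.03 on log2(TPM + 1). A core of 90 transcripts was called without each of the 16 libraries in turn, of which 43 rose and 47 fell.

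In the edgeR fit, the median absolute change was smaller in each higher range of abundance up to a mean log2 CPM of 8. Abundance is given as mean log2 CPM, where CPM is the estimated count scaled to library size by TMM. Among the 1880 transcripts with a mean log2 CPM under 0, the median absolute log2 change was 0.31 and the median standard error 0.38. Among the 3066 at 0 to 2 these values were 0.21 and 0.23, and among the 4291 at 2 to 4 they were 0.13 and 0.14. The 5252 transcripts at 4 to 6 had 0.080 and 0.093, the 2295 at 6 to 8 had 0.077 and 0.088, and the 500 at 8 or more had 0.10 and 0.10. In each of the 6 ranges the median change was below the median standard error; without acetaminophen replicate 6 this did not hold at 8 or more, where they were 0.110 and 0.0996. The order of the ranges was lost on log2(TPM + 1), where the pseudocount compresses low values: the median absolute changes there were 0.092, 0.12, 0.10, 0.075, 0.079 and 0.11 from the lowest range to the highest. Between 6 and 8, 90% of transcripts changed by less than 0.26 on the log2 scale, and under 0 the same limit was 0.93.

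Calls were more frequent among abundant transcripts. The share called was 0.319% under a mean log2 CPM of 0, where 3 rose and 3 fell, and 0.881% at 0 to 2, where 14 rose and 13 fell. It was 1.38% at 2 to 4, with 37 rises and 22 falls, and 1.54% at 4 to 6, with 43 rises and 38 falls. It was 2.09% at 6 to 8, with 18 rises and 30 falls, and 2.2% at 8 or more, with 5 rises and 6 falls. The smallest absolute log2 change that was called was 1.37 under 0 and 0.60, 0.26, 0.20, 0.19 and 0.26 in the ranges above it. Called transcripts had a median absolute log2 change of 1.75 under 0, 1.12 at 0 to 2, 0.75 at 2 to 4, 0.51 at 4 to 6, 0.46 at 6 to 8 and 0.54 at 8 or more. Without acetaminophen replicate 6 the shares called were 0.585%, 1.21%, 2.12%, 2.11%, 3.75% and 3.4% in the same order.

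**Figure D1:**
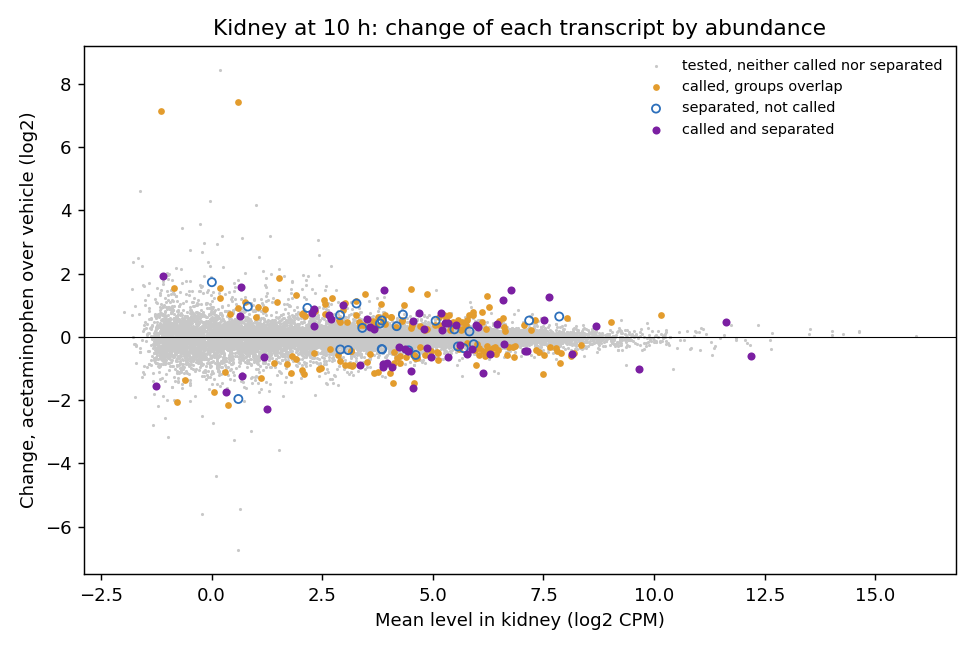
Each point is a transcript, with its mean level in kidney (log2 CPM) on the horizontal axis and its log2 change, acetaminophen over vehicle, on the vertical axis. Orange points are called with overlapping groups, purple points are called with fully separated groups, and open blue circles are separated without a call; the cloud narrows to the right, and the orange points above 7 are a pair of scarce transcripts.

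**Figure D2:**
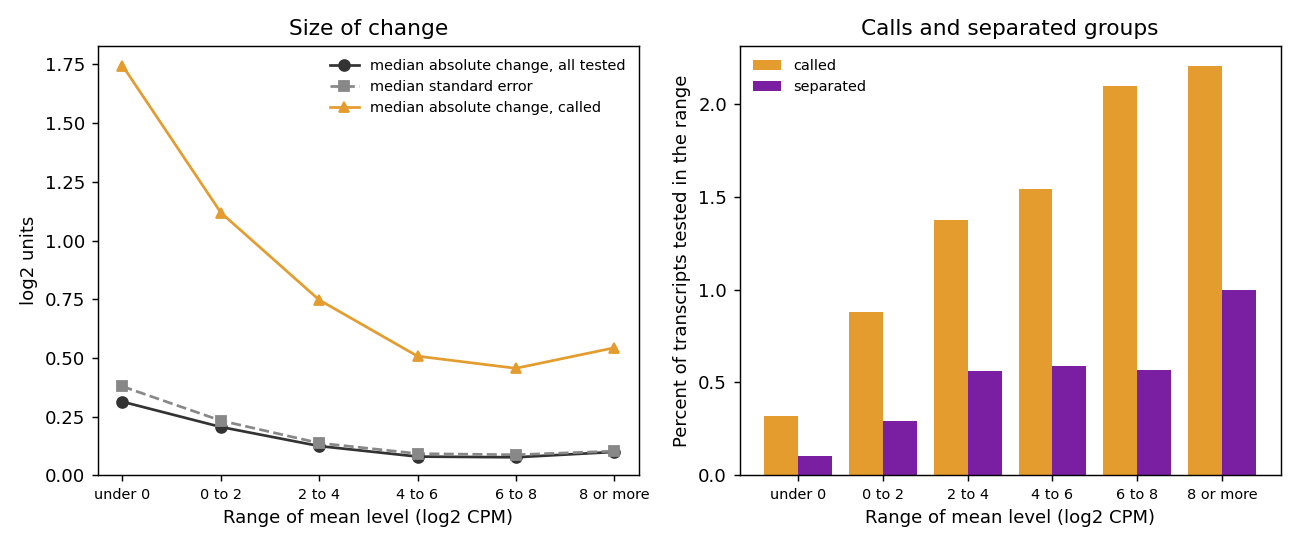
The left panel plots, for 6 ranges of mean level (log2 CPM), the median absolute log2 change of all tested transcripts (circles), its median standard error (squares) and the median absolute change of called transcripts (triangles). The right panel plots the percentage of tested transcripts in each range that were called (0.319% to 2.2%) or fully separated (0.106% to 1.0%).

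The spread within groups was larger in acetaminophen kidneys, a difference that was not tested. At 6 to 8 log2 CPM the median standard deviation of a transcript was 0.177 in acetaminophen kidneys and 0.140 in vehicle kidneys on the log2(CPM + 0.5) scale, and 68.9% of transcripts had the larger value in acetaminophen kidneys. Without acetaminophen replicate 6 the acetaminophen value was 0.133, below the vehicle value. At 2 to 4 log2 CPM the median standard deviation was 0.252 in acetaminophen kidneys, 0.220 in the same group without replicate 6, and 0.212 in vehicle kidneys.

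Among called transcripts, the largest changes belonged to 2 scarce ones. One had from 0 to 147 counts in the acetaminophen libraries, with a median of 17.5 and 2 libraries at 0, against 7 vehicle libraries at 0 and 1 vehicle library with 1 count. Its groups overlapped, and its call (edgeR adjusted p = 0.0180) was lost by limma voom (adjusted p = 0.352) and on log2(TPM + 1) (limma adjusted p = 0.282), and without vehicle replicate 1 (edgeR adjusted p = 0.0577). The other had 140 counts over the acetaminophen libraries, from 0 to 36 with a median of 18.5 and 2 libraries at 0, against 0 counts in each of the 8 vehicle libraries. Set against a floor of 3 counts over the whole vehicle group, and with libraries scaled, the pooled counts were 47.2-fold higher. That ratio leaves out the spread between libraries. The call had an edgeR adjusted p of 0.0294, and DESeq2 gave no adjusted p for this transcript. The adjusted p by edgeR was 0.0562 without acetaminophen replicate 8, 0.0569 without vehicle replicate 6 and 0.0501 without vehicle replicate 8. These were the only called transcripts with a 10 h library at 0, whereas 1161 of the 17284 tested had such a library.

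Complete separation was examined next, meaning that all 8 acetaminophen libraries lay above, or all below, the 8 vehicle libraries. This held for 84 transcripts, 45 higher and 39 lower with acetaminophen, or 0.486% of those tested (0.26% higher and 0.226% lower). The higher ones had log2 changes from 0.17 to 1.93 with a median of 0.53, and the lower ones from -2.29 to -0.23 with a median of -0.55. Only 9 in each direction changed by at least 1 on the log2 scale, so most separated transcripts shifted by less than that. The 45 held 0.650% ± 0.0535 of the counts in acetaminophen kidneys and 0.451% ± 0.0278 in vehicle kidneys, and the 39 held 0.531% ± 0.0495 in acetaminophen kidneys and 0.819% ± 0.0854 in vehicle kidneys (SD, n = 8 each); these shares describe the lists and were not tested.

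Separated transcripts were found in each abundance range. There were 2 under a mean log2 CPM of 0, 9 at 0 to 2, 24 at 2 to 4, 31 at 4 to 6, 13 at 6 to 8 and 5 at 8 or more. As a share of those tested this was 0.106%, 0.294%, 0.559%, 0.590%, 0.566% and 1.0%. Without acetaminophen replicate 6 the counts in the same order were 6, 14, 46, 58, 42 and 11, or 0.319%, 0.457%, 1.07%, 1.10%, 1.83% and 2.2%. Their median absolute log2 change was 1.58 at 0 to 2, 0.63 at 2 to 4, 0.43 at 4 to 6, 0.53 at 6 to 8 and 0.54 at 8 or more.

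Separation and the edgeR call picked overlapping but different transcripts. Of the 45 that were higher, 30 were called, and of the 39 that were lower, 29 were called. The 25 separated transcripts without a call had edgeR adjusted p from 0.0522 to 0.361. Conversely, 59 of the 232 called transcripts were separated, and the groups of the others overlapped in at least 1 pair of libraries.

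The gap between the groups was usually narrow. Among the 45, the lowest acetaminophen library exceeded the highest vehicle library by a median of 0.057 on the log2 scale and by 0.35 at most, and in 31 of them by less than 0.1. Among the 39, the gap had a median of 0.048 and a maximum of 0.54, and was under 0.1 in 25. Just outside the rule, with 1 of the 64 library pairs out of order, lay another 35 transcripts that tended higher and 26 that tended lower, of which 21 and 13 were called. With 2 pairs out of order there were 34 and 41, of which 11 and 22 were called.

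The library that lay nearest to the other group was most often acetaminophen replicate 6, in 21 of the 84 transcripts. Leaving out a library can only add separated transcripts, and without this one 85 were higher and 92 lower. Without acetaminophen replicate 2 there were 87 higher and 65 lower. Leaving out any other single library gave from 90 to 124 in all. The split between directions also moved with the scale. In CPM scaled to the library total 34 were higher and 47 lower, and 56 of the 84 were separated there too. In the authors' TPM 25 were higher and 63 lower, and 50 of the 84 were separated there too.

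Among called and separated transcripts whose mean log2 CPM reached 1, ENSRNOT00000012879 rose the most. Its level lay between 82.4 and 271 CPM in acetaminophen kidneys with a median of 155, and between 34.1 and 79.0 CPM in vehicle kidneys with a median of 66.3. The groups did not overlap, and the lowest acetaminophen values, 82.4 and 96.5 CPM, belonged to replicates 7 and 2, the libraries with the largest share in the 10 most abundant transcripts. Whether that share has a part in these values was not tested. The mean was 171 ± 67.7 CPM in acetaminophen kidneys and 60.9 ± 16.1 CPM in vehicle kidneys (SD over 8 libraries each), so that the log2 change was 1.49 ± 0.30 (SE; adjusted p by edgeR = 0.00836). It was 1.52 without acetaminophen replicate 6 (edgeR adjusted p = 0.00747). ENSRNOT00000012879 is 1339 bases long and belongs to the kidney-enriched transcripts, with 76.9 TPM in kidney and 4.31 TPM in liver of 5 h vehicle rats.

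The most abundant called and separated transcript that rose was ENSRNOT00000003932, of 2528 bases, which ranked 20 by abundance among all tested. It lay between 3270 and 4302 CPM in acetaminophen kidneys with a median of 3721, and between 2401 and 3014 CPM in vehicle kidneys with a median of 2684. Every acetaminophen library was above every vehicle library, with a ratio of 1.08 between the nearest pair. The mean was 3780 ± 304 CPM in acetaminophen kidneys and 2709 ± 213 CPM in vehicle kidneys (SD over 8 libraries each), so that the log2 change was 0.48 ± 0.10 (SE; adjusted p by edgeR = 0.0117). This transcript was kidney-enriched too, at 1075 TPM in kidney and 13.4 TPM in liver of 5 h vehicle rats.

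The largest fall by the same rule was that of ENSRNOT00000026355, a scarce transcript of 1500 bases in kidney. It lay between 0.459 and 1.16 CPM in acetaminophen kidneys with a median of 0.704, and between 1.59 and 5.89 CPM in vehicle kidneys with a median of 3.78. The spread within the vehicle group was wide, yet its lowest library remained 1.37 times above the highest acetaminophen library. The mean was 0.739 ± 0.220 CPM in acetaminophen kidneys and 3.65 ± 1.51 CPM in vehicle kidneys (SD over 8 libraries each), so that the log2 change was -2.29 ± 0.42 (SE; adjusted p by edgeR = 0.00380). ENSRNOT00000026355 is liver-enriched, at 1.91 TPM in kidney and 239 TPM in liver of 5 h vehicle rats. Single vehicle kidneys of 5 h ranged from 0.321 to 4.54 TPM, so they reached into the range of both groups of 10 h. Those ranges were 0.320 to 0.895 TPM with acetaminophen and 1.18 to 4.63 TPM with vehicle. The summed share of liver-enriched transcripts overlapped between the groups: it ran from 0.181% to 0.241% in acetaminophen kidneys and from 0.190% to 0.269% in vehicle kidneys.

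ENSRNOT00000046942, of 1647 bases, was the most abundant called and separated transcript that fell, at rank 13 by abundance. It lay between 2794 and 4189 CPM in acetaminophen kidneys with a median of 3659, and between 4191 and 6386 CPM in vehicle kidneys with a median of 5177. The groups were separated by the narrowest margin, since acetaminophen replicate 6 at 4189 CPM stood next to vehicle replicate 1 at 4191 CPM. The mean was 3567 ± 437 CPM in acetaminophen kidneys and 5389 ± 730 CPM in vehicle kidneys (SD over 8 libraries each), so that the log2 change was -0.60 ± 0.12 (SE; adjusted p by edgeR = 0.00848).

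**Figure D3:**
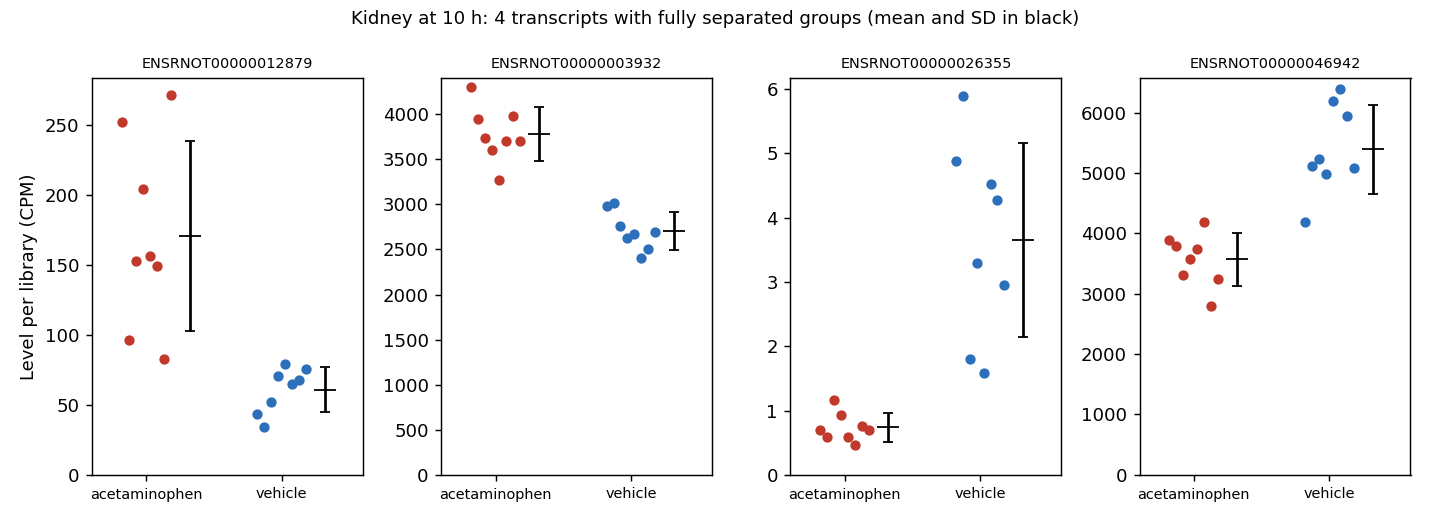
Points give the level in CPM of 4 transcripts in each of the 8 acetaminophen kidney libraries (left) and 8 vehicle kidney libraries (right) at 10 h. The mean and SD are in black. The groups do not overlap in any panel; the nearest pair of libraries is 4189 against 4191 CPM for ENSRNOT00000046942 and 1.16 against 1.59 CPM for ENSRNOT00000026355.

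The same 4 transcripts behaved differently from each other in the other groups. ENSRNOT00000003932 also rose in kidney at 5 h, with a log2 change of 0.49 ± 0.10 (SE; adjusted p by edgeR = 0.00385). It averaged 1489 ± 342 TPM in acetaminophen kidneys and 1075 ± 134 TPM in vehicle kidneys at that time (SD, n = 8 each). In liver at 10 h its log2 change was 2.04 ± 0.35 (SE; adjusted p by edgeR = 1.08e-04), at levels of 34.2 ± 12.7 TPM in acetaminophen livers and 8.36 ± 2.37 TPM in vehicle livers (SD, n = 8 each). The difference between the tissues, kidney minus liver, was -1.53 ± 0.37 (SE; adjusted p by edgeR = 0.00474).

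ENSRNOT00000026355 rose in liver at 10 h while it fell in kidney. It had 525 ± 109 TPM in acetaminophen livers and 211 ± 52.8 TPM in vehicle livers (SD over 8 libraries each), so that the log2 change was 1.31 ± 0.30 (SE; adjusted p by edgeR = 0.00288). The difference between the tissues, kidney minus liver, was -3.56 ± 0.53 (SE; adjusted p by edgeR = 3.86e-06). At 5 h the kidney change was -0.18 ± 0.39 on the log2 scale (SE; adjusted p by edgeR = 0.859), and its test against the change at 10 h missed the threshold (adjusted p by edgeR = 0.180).

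ENSRNOT00000012879 had a log2 change of 0.34 ± 0.29 in kidney at 5 h (SE; adjusted p by edgeR = 0.571) and of -0.0031 ± 0.19 in liver at 10 h (SE; adjusted p by edgeR = 0.994). Its kidney effect at 10 h was larger than the liver effect by 1.52 ± 0.37 (SE; adjusted p by edgeR = 0.00566), while the difference from the kidney effect at 5 h did not pass (edgeR adjusted p = 0.450). Vehicle kidneys of 5 h ranged from 24.02 to 123 TPM for this transcript, with a median of 80.3 TPM. They reached above the vehicle kidneys of 10 h, at 30.5 to 66.9 TPM. They also reached into the range of the acetaminophen kidneys of 10 h, at 72.6 to 230 TPM.

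ENSRNOT00000046942 fell in liver at 10 h as well, by 1.18 ± 0.36 on the log2 scale (SE; adjusted p by edgeR = 0.0237). At 5 h the kidney change was -0.29 ± 0.12 on the log2 scale (SE; adjusted p by edgeR = 0.150). Neither the difference between tissues (edgeR adjusted p = 0.411) nor that between times (edgeR adjusted p = 0.789) passed the threshold.

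Beyond these 4, the transcripts called at 10 h tended to move the same way at 5 h, in kidney libraries that the call at 10 h did not contrast, although the fit shares its estimate of spread. Of the 120 rises, 107 had a positive change at 5 h, where 50.0% of all tested did, and 41 were called as rises (2.79% of all tested were). Of the 112 falls, 98 had a negative change at 5 h, where 50.0% of all tested did, and 20 were called as falls (2.29% of all tested were). None was called in the opposite direction. The changes at 5 h were smaller, with medians of 0.30 for the rises and -0.24 for the falls; since the lists were chosen at 10 h, a smaller value at the other time is no sign of a weaker response. Among the separated transcripts, 44 of the 45 higher ones and 35 of the 39 lower ones had the same sign at 5 h. With acetaminophen replicate 6 left out of the 10 h calls, 145 of 173 rises and 151 of 180 falls had the same sign. These shares were 83.8% and 83.9%, against 89.2% and 87.5% with it.

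When the 10 h change was set against the 5 h change within kidney, edgeR called 4 transcripts, or 0.0231% of those tested, and 1228 had an unadjusted p under 0.05. Of the 120 rises at 10 h, 0 were among the 4, and of the 112 falls 1 was. Without the kidney libraries numbered 44 and 56, which are 5 h acetaminophen replicate 3 and 10 h acetaminophen replicate 6, the count was 36, and without single kidney libraries it lay between 0 and 46. These counts do not show that the changes at both times were the same.

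**Figure D4:**
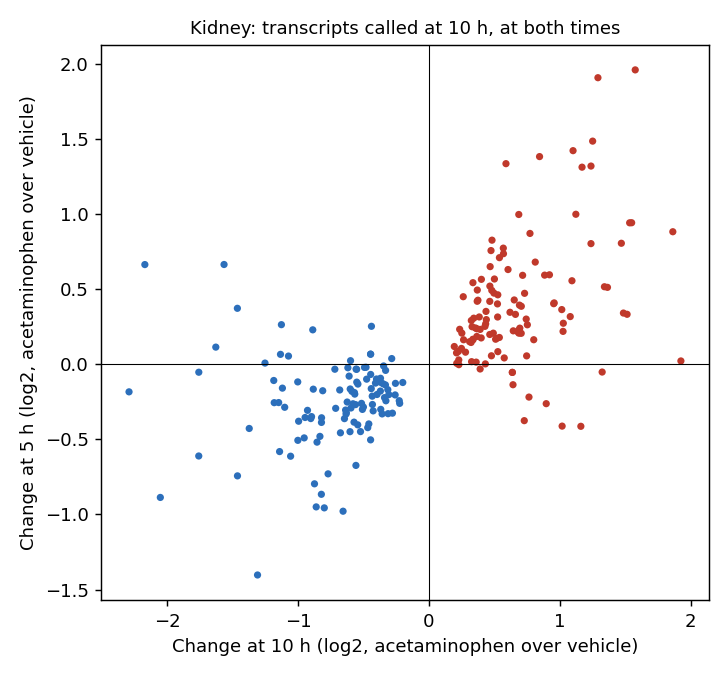
Each point is a transcript called at 10 h, with its log2 change in kidney at 10 h on the horizontal axis and at 5 h on the vertical axis (red, rose at 10 h; blue, fell at 10 h). The 2 scarce transcripts with log2 changes above 7 at 10 h are not drawn; most red points lie above the horizontal line and most blue points below it, as in the counts of 107 of 120 and 98 of 112.

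The reverse view starts from lists in which the libraries of 10 h took no part in the contrast. Of 482 transcripts called as rises in kidney at 5 h, 427 had a positive change at 10 h, with a median log2 change of 0.16 at 10 h and 0.47 at 5 h. Of 395 called as falls at 5 h, 328 had a negative change at 10 h, with medians of -0.16 at 10 h and -0.50 at 5 h. The median log2 change at 10 h over all tested was -0.0017. Because these lists were chosen at 5 h, their smaller values at 10 h are no sign of a weaker response. Each library of 10 h was scored as the mean log2 difference from the 10 h vehicle mean. The 5 h rises lay between 0.180 and 0.239 in the 8 acetaminophen libraries and between -0.0477 and 0.0332 in the 8 vehicle libraries. The 5 h falls lay between -0.286 and -0.0813 in acetaminophen kidneys and between -0.0255 and 0.0630 in vehicle kidneys. Every acetaminophen library at 10 h was thus outside the vehicle range in both lists, replicate 6 included, at 0.225 and -0.223. The weakest in the falls was replicate 4, at -0.0813.

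**Figure D5:**
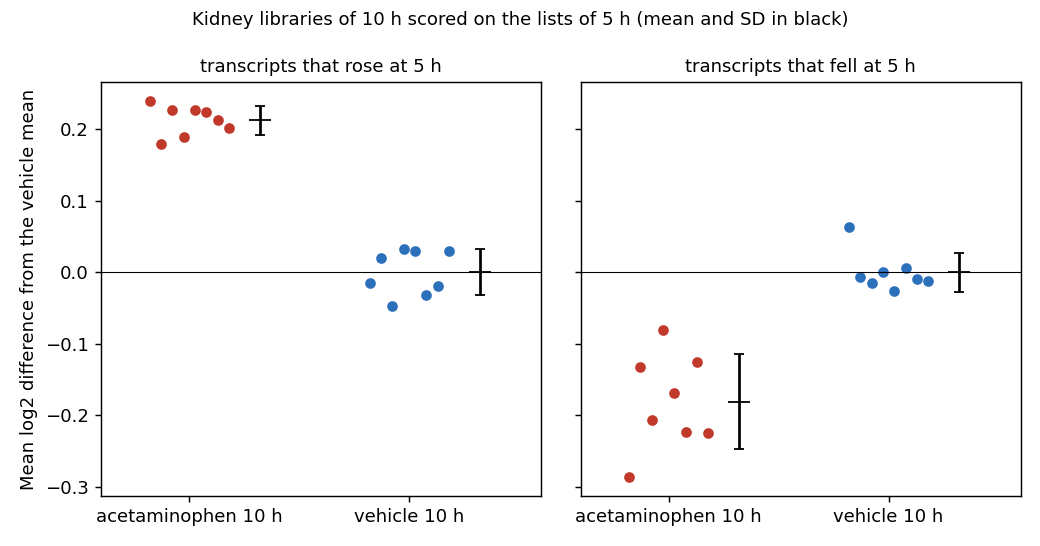
Each point is a kidney library of 10 h, scored as its mean log2 difference from the 10 h vehicle mean over the 482 transcripts that rose at 5 h (left) and the 395 that fell at 5 h (right), with group means and SD in black; the vehicle mean is 0 by construction. The 8 acetaminophen libraries lie at 0.180 to 0.239 and at -0.286 to -0.0813, outside the range of the 8 vehicle libraries in both panels.

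Liver of 10 h offered a comparison with the organ that acetaminophen is best known to injure, in libraries prepared alike per the labels. Of the 120 kidney rises, 102 were tested in liver, where 73 had a positive change (52.2% of all liver transcripts tested did). There, 28 of the 102 were called as rises (9.74% of all liver transcripts tested were), while 4 were called as falls (6.08% were). Of the 112 kidney falls, 87 were tested in liver, where 67 had a negative change (47.8% of all tested did). Calls as falls numbered 21 and calls as rises 5. Without kidney acetaminophen replicate 6, 103 of 149 kidney rises tested in liver had a positive change, and 102 of 150 falls a negative one. In liver at 5 h, 70 of the 102 rises had a positive change (53.1% of all tested did). There, 23 were called as rises (7.37% of all liver transcripts tested were), while 5 were called as falls (6.54% were). Of the 87 falls, 18 were called as falls (6.54% of all tested were) and 1 as a rise (7.37% were). A negative change was seen in 62 of the 87, against 46.9% of all tested. Without kidney acetaminophen replicate 6, these signs were shared by 101 of 149 rises and 108 of 150 falls. In the fit of both tissues, the effect differed between kidney and liver for 33 of the 120 rises, more positive in kidney for 23 and more negative for 10. It differed for 21 of the 112 falls, more negative in kidney for 19 and more positive for 2. Over all transcripts of that fit 6.5% differed; the lists were chosen by their kidney effect, so a larger share among them is no separate finding.

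Transcripts were also grouped by the tissue in which 5 h vehicle rats express them. Of 1645 kidney-enriched transcripts tested, 21 rose and 35 fell, or 1.28% and 2.13%, against 0.694% and 0.648% over all tested. Their median log2 change was -0.03, against 0.00 over all tested. Separated groups were seen in 6 that were higher and 11 that were lower, or 0.365% and 0.669%, against 0.26% and 0.226% over all tested. Without acetaminophen replicate 6, 28 rose and 47 fell, or 1.70% and 2.86%, against 1.001% and 1.04% over all tested. Separation without it was seen in 8 that were higher and 21 that were lower, or 0.486% and 1.28%, against 0.492% and 0.532% over all tested. Of 4405 transcripts with levels within 2 times of each other in kidney and liver, 23 rose and 15 fell, or 0.522% and 0.341%, below the shares over all tested, with a median log2 change of 0.00. With that library left out, 36 rose and 36 fell, or 0.817% each. Their median standard error was 0.10, against 0.17 for the kidney-enriched transcripts, and their median absolute log2 change was 0.085, against 0.20.

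Liver-enriched transcripts are scarce in kidney, where 225 of 437 passed the filter. Among these, 4 rose and 5 fell, or 1.78% and 2.22%, against 0.694% and 0.648% over all tested, and ENSRNOT00000026355 is among those that fell. Their median log2 change was -0.24 and their median standard error 0.41. Separated groups were seen in 3 that were lower with acetaminophen (1.33%, against 0.226% over all tested) and in 0 that were higher. With acetaminophen replicate 6 left out, 4 rose and 5 fell, or 1.78% and 2.22%, against 1.001% and 1.04% over all tested. The median was then -0.27. Separation was seen in 1 that was higher (0.444%, against 0.492% over all tested) and 4 that were lower (1.78%, against 0.532%).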

How the data were processed

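RNA of 64 rat libraries was sequenced; per the labels' protocols, poly-A messenger RNA was made into stranded libraries. The authors deposited 1 kallisto table per library (kallisto 0.42.4, build Rnor 6.0, per the submitters' processing notes). The authors' estimated counts carry no normalization, whereas the deposited TPM adjust for transcript length and depth. Kallisto divides reads that fit several transcripts by a model, so a change of 1 transcript can come from reads moving between related ones.

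Groups were taken from the tissue, time and agent labels. Members, lists and alternatives were chosen with earlier results of these data known. After rounding, estimated counts entered edgeR 4.0.16 under R 4.3.3 (filterByExpr, TMM, glmQLFit and glmQLFTest, two-sided) on the 32 kidney libraries in 4 groups, with Benjamini-Hochberg adjustment over 17284 transcripts; standard errors are the log2 change over the square root of F. Differences between tissues used all 64 libraries in 8 groups, as if independent. Liver values came from a fit of the 32 liver libraries. CPM were scaled by TMM. Enriched transcripts reach 1 TPM and a ratio of 16 to the other tissue, with 0.01 TPM added, and those at similar levels have at least 1 TPM in both tissues and differ by at most 2 times. DESeq2 1.42.0 and limma 3.58.1 served as alternatives.

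The 4 identifiers are, in each direction, the largest change among called and separated transcripts whose mean log2 CPM is 1 or higher, and the most abundant called and separated transcript. The planned gene lists and cell type markers could not be used without gene symbols. Counts of every pair of libraries within a group differed by more than sampling noise (smallest chi-square per degree of freedom 15.0). On simulated counts for the kidney 10 h comparison (17062 transcripts), edgeR recovered 59.7% of 1.5-fold, 82.1% of 2-fold and 97.0% of 4-fold changes. Of its 178 calls, 19 were transcripts simulated without a change, a larger share than the 0.05 set for adjusted p. The changes were placed only in transcripts above a lower limit of mean CPM, and no simulated library stood apart as acetaminophen replicate 6 did. Recovery of scarcer transcripts, or with such a library, was not tested.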

Additional observations from a re-analysis of the deposited data

Results flagged for a closer look

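ENSRNOT00000012879 had 7.82 TPM in 5 h vehicle liver replicate 8, far above the next library at 4.76 TPM. ENSRNOT00000003932 had 32.4 TPM in 5 h vehicle liver replicate 6, against 13.7 TPM in the next. ENSRNOT00000046942 had 343 TPM in 10 h acetaminophen liver replicate 5, against 183 TPM in the next. In the kidneys of 10 h, vehicle replicate 1 had a mean log2 difference of 0.0630 over the transcripts that fell at 5 h, against 0.00550 in the next vehicle library. Chance marks about 1 in 20 groups in this way if values are normally distributed, which was not checked for these.

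The acetaminophen effect at 10 h differed between kidney and liver, kidney minus liver, by 1.52 for ENSRNOT00000012879 (edgeR adjusted p = 0.00566), by -1.53 for ENSRNOT00000003932 (edgeR adjusted p = 0.00474) and by -3.56 for ENSRNOT00000026355 (edgeR adjusted p = 3.86e-06) on the log2 scale.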

How the results depend on the processing

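The number of called transcripts, 232, was 423 by DESeq2, 1065 by limma voom with sample weights, 379 on the 16 libraries of 10 h alone, and 508 without libraries 44 and 56; the cause was not tested. It was 231 with DESeq2 size factors, 172 without a filter, 198 and 208 on log2(TPM + 1) and log2(TPM + 0.1), and 211 once the library total entered the model. It ranged from 113 to 353 without each of the 16 libraries of 10 h in turn; the 5 h libraries were not left out singly for this count. Of the 232, 229 were among the DESeq2 calls, 230 among the voom calls, 206 among those on 16 libraries, and 80 passed in all 25 alternatives. The separated transcripts, 84, ranged from 81 to 88 over other scalings and no filter, and from 90 to 177 without 1 of the 16 libraries. The members changed more than the count. Of the 84, 79 were separated with DESeq2 size factors, 56 in CPM scaled to the library total and 50 in the authors' TPM. On log2(TPM + 1), the median absolute log2 change was 0.092 in place of 0.31 under a mean log2 CPM of 0, and 0.12 in place of 0.21 at 0 to 2, where the pseudocount compresses low values. In the other ranges and alternative fits it stayed within 1.5 times of its value (fits chosen after seeing the data). The 4 named transcripts kept direction and call in the 25 alternatives, with log2 changes from 1.36 to 1.59 for ENSRNOT00000012879, 0.45 to 0.51 for ENSRNOT00000003932, -2.42 to -1.24 for ENSRNOT00000026355 and -0.64 to -0.55 for ENSRNOT00000046942. The test of the kidney times, with 4 calls, gave 4 with DESeq2 size factors, 36 without libraries 44 and 56, and 0 to 46 without each of the 32 kidney libraries (chosen after seeing the data). It was 46, 21 and 10 without 5 h acetaminophen replicates 6, 3 and 1, 24 and 10 without 10 h acetaminophen replicates 6 and 2, 8 and 1 without 5 h vehicle replicates 8 and 5, and 2 without 10 h vehicle replicate 2. It was 0 without 10 h acetaminophen replicates 1, 3, 4, 5, 7 or 8, 10 h vehicle replicates 4, 6 or 8, 5 h acetaminophen replicates 2, 4, 5 or 7, and 5 h vehicle replicates 2, 3, 4 or 7. The test of the tissues, with 1171 calls, gave 1406 on the libraries of 10 h alone and 1154 with DESeq2 size factors. The difference in detected transcripts, -21.1, was 45.6 without acetaminophen replicate 6, and neither passed the test. No paired analysis was possible because the labels give no replicate numbers that groups share. Depth limits the scarce transcripts most, where the median standard error was 0.38 under a mean log2 CPM of 0.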
